A study of Mus musculus with 4 samples.

Results

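The genes examined were 5 that encode demethylases of lysine 36 of histone H3: Kdm4a, Kdm4b, Kdm4c, Kdm2a and Kdm2b. Their members in the data were H3K36me3 peaks outside intergenic sequence whose gene name in the authors' annotation was 1 of these 5. This rule gave 64 of the 36820 peaks of the wild-type (WT) library and 92 of the 95750 peaks of the library labelled H2A.z1cKO (cKO). The mark was profiled by ChIP-seq at embryonic day 13 in forebrain neural progenitors of C57BL/6 mice, with 1 ChIP library per genotype and an input for each. WT animals carry no engineered allele in the labels, and the cKO carries a brain-specific deletion of the histone variant H2A.z. The driver of the deletion and the number of embryos per library are not given in the sources used here, and H3K36me3 peaks do not check the deleted allele. With 1 library per genotype there is no spread between replicates, so no difference between genotypes was tested and each value describes these 2 libraries. In chromatin from many cells, a mark in more cells and more of the mark per cell cannot be told apart.

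H3K36me3 is laid down behind elongating RNA polymerase II, mainly by SETD2, and lies over the bodies of transcribed genes, usually more densely toward the 3′ end. KDM4A, KDM4B and KDM4C are JmjC enzymes that remove trimethyl groups from lysine 9 and lysine 36 of histone H3. KDM2A and KDM2B act on the lower methylation states of lysine 36 and carry a CXXC zinc finger that binds unmethylated CG dinucleotides, and KDM2B brings a non-canonical Polycomb complex (PRC1.1) to CG-rich promoters.

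All 5 genes were covered more in cKO than in WT, and their order was the same in both libraries. Coverage, the percent of the gene from its first to its last annotated base that lies inside peaks, was 39.4% in WT and 84.4% in cKO for Kdm4a. It was 8.08% and 42.7% for Kdm4b, and 5.89% and 28.9% for Kdm2a. The longer genes were covered least, with 2.21% and 8.31% for Kdm2b and 0% and 1.23% for Kdm4c. Kdm4a, Kdm4b and Kdm2a were higher in cKO by at least 10 percentage points, and none of the 5 was lower. Among 16849 protein-coding genes of at least 5 kb, 32.6% were higher by that margin, 0% were lower, and 51.8% were higher by any amount. All 5 genes had a peak in at least 1 library. Among the 8870 genes of at least 5 kb with a peak in either library, 61.9% were higher by the margin, so 3 of 5 was near the share of marked genes. These marked genes had a median coverage of 1.81% in WT and 19.3% in cKO.

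**Figure D1:**
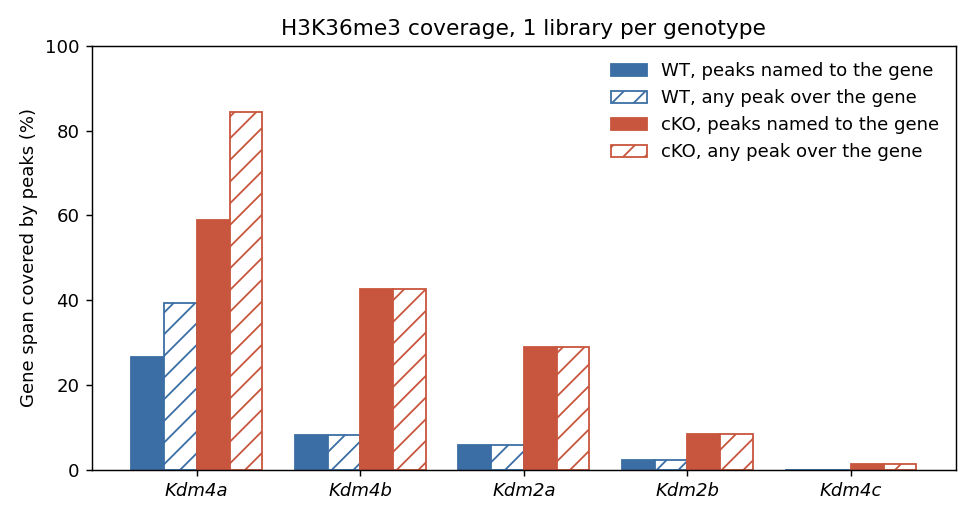
Percent of each gene covered by H3K36me3 peaks in WT and cKO, 1 library per genotype, so no error bars. The order Kdm4a, Kdm4b, Kdm2a, Kdm2b, Kdm4c is the same in both libraries, from 39.4% down to 0% in WT and from 84.4% down to 1.23% in cKO.

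The libraries were of like depth but not of like peak yield. WT held 31984670 ChIP tags and 38500353 input tags, and cKO held 32927164 and 35026817. The peaks of the WT list covered 13322653 bp and those of the cKO list 69069876 bp, so the difference at the 5 genes sits within a difference of the whole list. Its part in their values cannot be told apart from the genotype with 1 library of each. When the weaker cKO peaks were dropped until the list covered as much as WT, Kdm4a was still higher by 16.0 points in peaks that carry its name, Kdm2a by 7.85 and Kdm2b by 0.86, while for Kdm4b the difference turned to -3.03 points. Of markers of the labelled cells, 5 of 7 neural progenitor genes had a peak in WT and 6 in cKO. Of 5 neuronal genes 3 had one in each library, of the 3 blood genes and the 3 endothelial genes none did, and of 3 microglial genes only Csf1r did, in cKO. Among all genes of at least 5 kb, 38% had a WT peak and 52.1% a cKO peak, so a gene without a peak was common. The blood genes Hba-a1 and Hbb-bt are only 815 and 1400 bp long. These few markers therefore do not measure how pure the cells were.

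Promoters that RefSeq lists for 3 of the genes are shown because the DNA-binding part of the KDM2 enzymes reads CG dinucleotides. Another reason is that Kdm2b has a start inside the gene, between a long region with few peaks and a marked one. Each line runs 5′ to 3′ on the gene's own strand over the 250 bases before a start in assembly GRCm38.p6, with every CG in capitals. CG reads the same on both strands, so 1 search covers both.
Kdm2b outer start, chr5:122989100-122989349, minus strand: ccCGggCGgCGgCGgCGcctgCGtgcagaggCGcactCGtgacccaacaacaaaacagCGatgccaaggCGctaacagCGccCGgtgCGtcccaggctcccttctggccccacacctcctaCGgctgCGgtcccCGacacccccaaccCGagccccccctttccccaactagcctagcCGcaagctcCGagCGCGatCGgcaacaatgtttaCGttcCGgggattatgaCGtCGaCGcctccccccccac
Kdm2b internal start, chr5:122900351-122900600, minus strand: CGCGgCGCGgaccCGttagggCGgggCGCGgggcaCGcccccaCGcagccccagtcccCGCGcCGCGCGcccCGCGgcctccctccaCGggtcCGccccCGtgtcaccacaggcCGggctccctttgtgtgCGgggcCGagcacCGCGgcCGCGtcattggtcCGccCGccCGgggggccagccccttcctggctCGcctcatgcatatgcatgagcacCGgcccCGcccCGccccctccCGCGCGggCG
Kdm4a start, chr4:118180044-118180293, minus strand: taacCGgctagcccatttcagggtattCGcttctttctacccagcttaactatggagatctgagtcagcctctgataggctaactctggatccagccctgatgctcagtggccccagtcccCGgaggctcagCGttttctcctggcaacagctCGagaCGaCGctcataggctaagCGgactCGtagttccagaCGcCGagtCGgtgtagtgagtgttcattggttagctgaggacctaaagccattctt
Kdm4c start, chr4:74242247-74242496, plus strand: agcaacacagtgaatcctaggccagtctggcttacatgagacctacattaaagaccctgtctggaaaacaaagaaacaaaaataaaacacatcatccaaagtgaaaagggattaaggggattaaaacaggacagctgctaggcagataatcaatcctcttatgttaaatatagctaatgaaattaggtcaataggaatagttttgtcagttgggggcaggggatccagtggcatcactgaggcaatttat
Kdm4c second start, chr4:74251629-74251878, plus strand: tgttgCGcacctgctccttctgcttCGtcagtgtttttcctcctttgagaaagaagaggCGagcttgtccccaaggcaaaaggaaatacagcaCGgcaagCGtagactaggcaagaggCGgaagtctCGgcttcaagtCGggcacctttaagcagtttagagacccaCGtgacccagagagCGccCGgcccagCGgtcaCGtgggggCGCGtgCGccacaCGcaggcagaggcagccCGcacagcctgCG
The internal Kdm2b window held 38 CG, a number reached by 1.88% of the 32851 RefSeq windows of the same length, whose median was 6. The outer Kdm2b window held 27, reached by 8.56%, and that of Kdm4a held 12, reached by 33.5%. Kdm2b windows not printed held 36 CG (122900368 to 122900617) and 12 CG (122988508 to 122988757), so the windows of Kdm2b differed among themselves. Kdm4c also contrasted within itself, with 0 at its first start and 19 at the start 9.38 kb further in, the latter reached by 19.7%. No peak of either library overlapped any of the 7 windows listed for these genes. Over all RefSeq windows, here taken somewhat longer so that they reach past the start, 0.338% carried a WT peak and 1.26% a cKO peak. An unmarked window was thus the common state and says nothing particular of these genes. Kdm2a and Kdm4b are named only.

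Kdm4a, chromosome 4, 118136957 to 118180090 on the minus strand, was the shortest of the 5 at 43134 bp and the most marked. It held 25 named peaks in WT and 9 in cKO, and it was the only one of the 5 with fewer peaks in cKO. The fewer peaks were longer: the median width was 334 bp in WT, from 162 to 1582, and 1581 bp in cKO, from 416 to 8532. Summed named peaks covered 11436 bp and 25379 bp, which is 26.5% and 58.8% of the gene. A single cKO peak of 8532 bp (118140871 to 118149402) spanned 8 separate WT peaks, 6 of the 9 cKO peaks overlapped 2 or more, and 5 contained 2 or more whole. The most significant WT peak (118159454 to 118160414, an intron, 20.2 kb from the start) had 31 tags at its summit and 8.89-fold enrichment, and ranked 518 in its list. It lay within the most significant cKO peak (118158386 to 118162862), which had 61 tags and 14.6-fold enrichment over its own input and ranked 260. Tag numbers and folds are the authors' values for each peak and order peaks only within a list.

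The annotation gives part of the Kdm4a gene to other names. In WT, 9 peaks of 3831 bp in all were named to Gm23382, a pseudogene of chromosome 4 (118164078 to 118164185) that lies inside Kdm4a, and 3 of 1741 bp to the downstream neighbour St3gal3, which encodes a sialyltransferase. In cKO a single peak of 8500 bp carried the name Gm23382 and 2 peaks the name St3gal3. Counting every peak over the span gave 37 in WT and 12 in cKO, and this is the basis of the 39.4% and 84.4%. The mark ran through the gene without a lean to either end: coverage on the 5′ side and the 3′ side of the gene's midpoint was 39.6% and 39.3% in WT, and 84.3% and 84.6% in cKO. The longest stretch without a peak between peaks was 2.23 kb in WT and 0.59 kb in cKO. Joining peaks up to 3 kb apart therefore merges all peaks over the span. Coverage then came to 90.5% in WT and to 93.9% in cKO, which is not past the 10-point margin. Joining itself was planned, and its use with span overlap was chosen after seeing the data. Joined peaks with the gene's name covered 57.7% in WT and 63.4% in cKO, a difference of 5.67 points, also not past the margin. With the gene cut into 10 equal bins, the first bin was the least covered, with 4.59% in WT and 39.4% in cKO. The others ran from 22.0% to 70.0% in WT and from 68.1% upward in cKO, where 3 bins were covered completely.

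**Figure D2:**
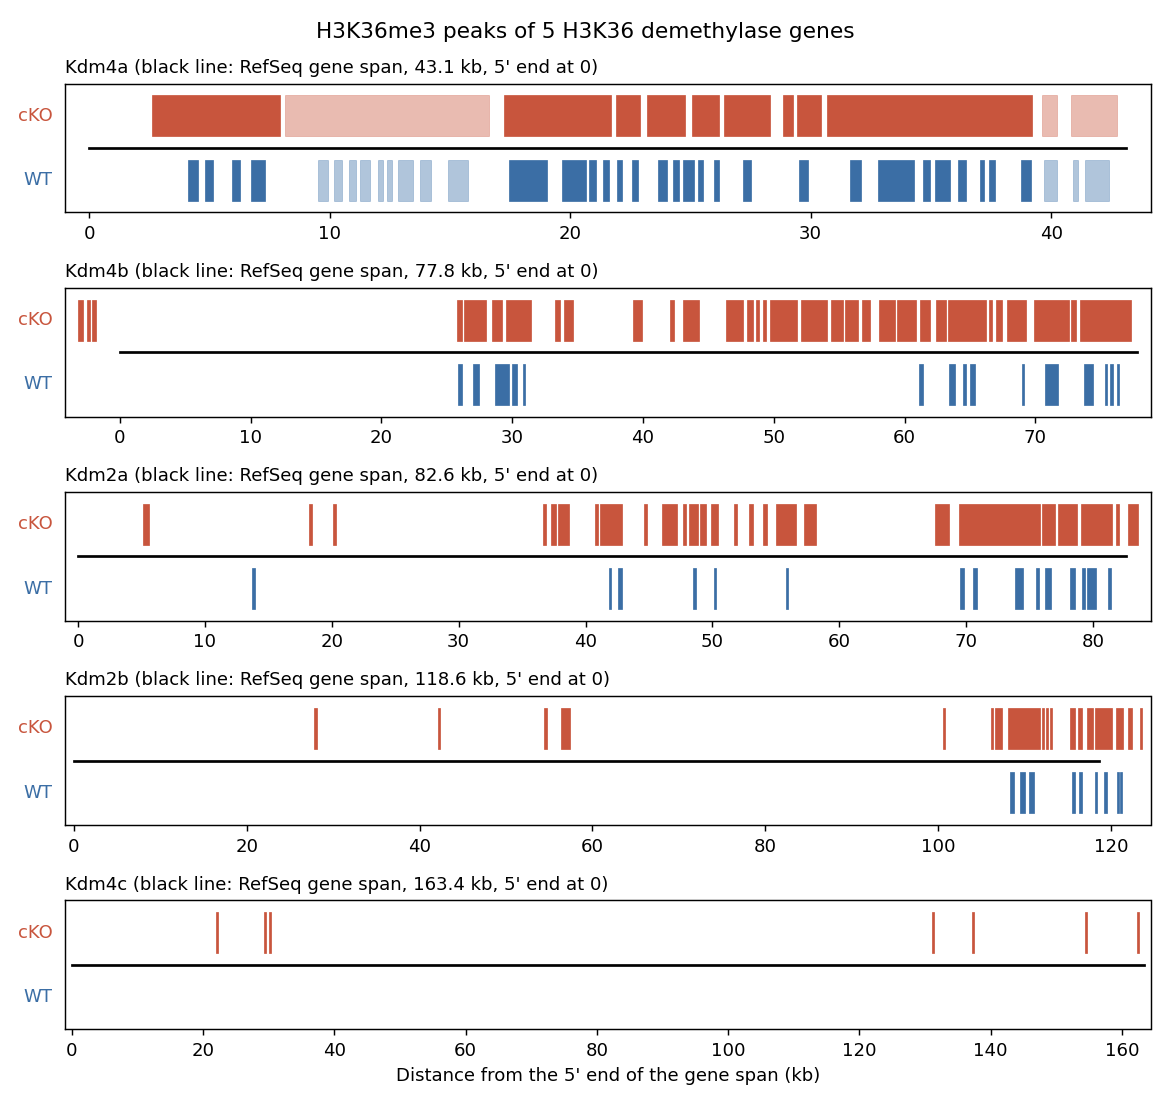
Peaks along each of the 5 genes, drawn from the gene's start at the left in kb, cKO above WT. Dark rectangles are peaks named to the gene and pale ones peaks over the same span named to another gene. Kdm4a is filled along its length, while the WT peaks of Kdm4b, Kdm2a and Kdm2b lie mainly in the later part and Kdm4c has none.

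Kdm4b, chromosome 17, 56325970 to 56403774 on the plus strand, is 77805 bp long and held 15 WT peaks and 32 cKO peaks. Their median width was 318 bp in WT, from 152 to 1057, and 771.5 bp in cKO, from 199 to 3926. The WT peaks formed 2 groups, 5 peaks between 25.8 and 31.0 kb from the start and 10 between 61.1 kb and the end. The 30.1 kb between them, free of peaks in WT, held 16 cKO peaks by their summits and was 50.6% covered in cKO. All 15 WT peaks were overlapped by a cKO peak. The first 25.8 kb was bare in WT and 0.36% covered in cKO, so the place where the mark began was nearly the same in both. From there the cKO lay mostly toward the 3′ end: before and after the midpoint 15.0% and 70.3% were covered, against 6.09% and 10.1% in WT. The last of the 10 bins was covered 30.2% in WT and 87.6% in cKO.

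No WT peak of Kdm4b had more than 21 tags at its summit, a height shared by an exonic peak (56389372 to 56389798) and a wider intronic one (56396683 to 56397739, 1057 bp), both 6.11-fold enriched. Both ranked 6887 in the WT list. In cKO the widest peak of the gene (56399379 to 56403304, 3926 bp, 43 tags, 10.1-fold) spanned 4 WT peaks and ended 0.47 kb before the gene's last base. The most significant cKO peak with the name Kdm4b (56322795 to 56323155) lay outside the gene, over its upstream neighbour Uhrf1, which encodes a reader of hemimethylated DNA. In cKO 3 peaks with this name lay outside the span, 2 of them over Uhrf1, and none of the WT peaks did. One further cKO peak with the name Kdm4b (56404207 to 56404402) was classed as intergenic and was not counted.

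Kdm4c, chromosome 4, 74242497 to 74405864 on the plus strand, is the longest of the 5 at 163368 bp and had no WT peak. It had 7 cKO peaks of 231 to 384 bp, with 18 to 23 tags at the summit and 4.45-fold to 5.17-fold enrichment. The strongest (74404806 to 74405078, in the last exon) ranked 53011 of 95750, so all 7 stood in the weaker part of the list. Of these, 3 lay 22.0 to 30.4 kb from the start and 4 in the last part from 131.0 kb on, with 100.6 kb between them. A gene with cKO peaks and no WT peak was not rare: 14.7% of genes of at least 5 kb were of this kind, 38% had a WT peak and 52.1% a cKO peak. When the cKO list was cut to its most significant peaks, either to the number of WT peaks or to their covered length, none of the 7 remained.

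Kdm2a, chromosome 19, 4316144 to 4398721 on the minus strand, is 82578 bp long and held 15 WT and 26 cKO peaks. In cKO 1 of the named peaks (4315198 to 4315985) lay just beyond the gene's end. The median width was 277 bp in WT, from 161 to 760, and 505.5 bp in cKO, from 189 to 6385. The mark gathered beyond the midpoint in both libraries, where 11.1% was covered in WT and 50.9% in cKO, while before it 0.695% and 6.89% were covered. By summit, 1 of 15 WT peaks lay before the midpoint and 7 of the 25 cKO peaks that overlap the gene. The last of the 10 bins was covered 29.1% and 80.6%. In WT the most significant peak (4322073 to 4322515, intron, 76.3 kb from the start) had 26 tags and 7.50-fold enrichment, and ranked 1762. In cKO it was an intronic peak nearby (4319984 to 4321511) with 56 tags and 12.0-fold enrichment, which ranked 830. A cKO peak of 6385 bp (4322912 to 4329296) spanned 4 WT peaks, and another (4317237 to 4319696) spanned 3.

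The single WT peak of the 5 genes that no cKO peak overlapped was in Kdm2a. It is an intronic peak of 287 bp (4384734 to 4385020), 13.9 kb from the start, with 19 tags and 5.56-fold enrichment, and the nearest cKO peak was 4.23 kb away. It was also the only WT peak before the gene's midpoint, so the 27.8 kb that followed it was free of peaks in WT. That stretch held 6 cKO peaks by their summits and was 10.3% covered in cKO.

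**Figure D3:**
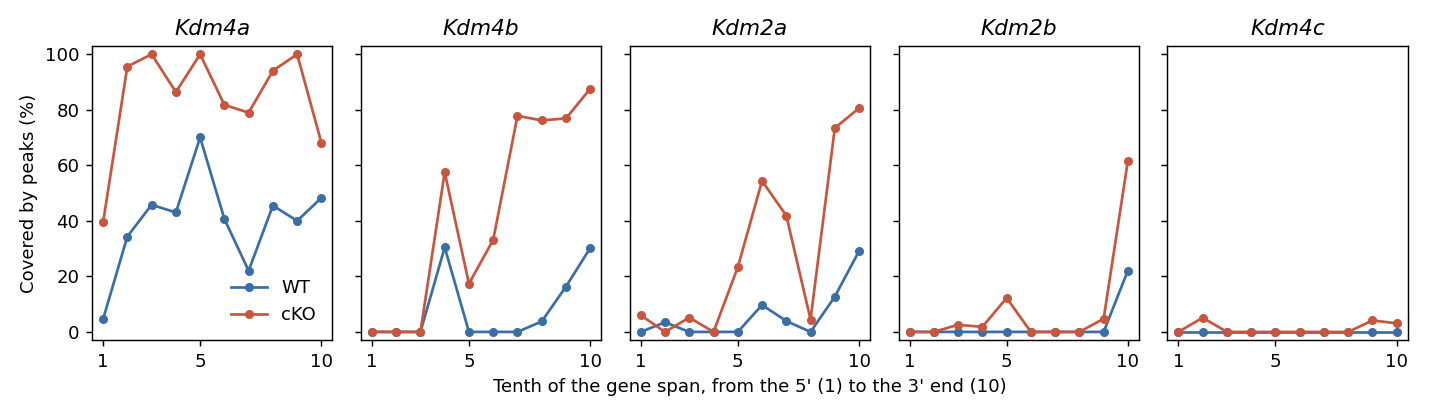
Percent covered by peaks in each of 10 equal bins of the gene, from the start (left) to the end (right), in WT and cKO. Kdm4a is covered in every bin, whereas in Kdm4b, Kdm2a and Kdm2b the last bin is among the most covered, at 30.2%, 29.1% and 22.1% in WT and 87.6%, 80.6% and 61.7% in cKO.

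Kdm2b, chromosome 5, 122870664 to 122989270 on the minus strand, is 118607 bp long and held 9 WT and 18 cKO peaks by name. The median width was 360 bp in WT, from 229 to 607, and 408.5 bp in cKO, from 214 to 3643. Of these, 3 in each library lay outside the gene, and 2 WT and 3 cKO peaks lay over Rnf34, a neighbour that encodes a ubiquitin ligase. Within the span there were 6 WT and 15 cKO peaks. All 6 WT peaks lay beyond 108.3 kb from the start, and the last of the 10 bins was covered 22.1% in WT and 61.7% in cKO. The internal start, whose CG-rich window is printed above, divides the gene. The 88.9 kb upstream of it held no WT peak and 4 cKO peaks covering 2.22%, and the 29.7 kb downstream held 6 WT peaks covering 8.82% and 11 cKO peaks covering 26.5%. The nearest peak to the internal window was 19.4 kb away in WT and 11.6 kb in cKO.

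The most significant Kdm2b peak in WT (122879243 to 122879843) had 24 tags and 6.95-fold enrichment, ranked 3041, and was 109.9 kb from the start. It lay inside the most significant cKO peak (122877536 to 122881178), 3643 bp long with 53 tags and 9.47-fold enrichment, which spanned 3 WT peaks and ranked 2410. The 4 upstream cKO peaks had 18 to 28 tags and folds of 3.30 to 6.09, and 1 of them, at 42.3 kb, stood on a local input background 2.02 times the genome level. All 9 WT peaks of Kdm2b were overlapped by a cKO peak, including the 2 over Rnf34.

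Across the 5 genes, 63 of 64 WT peaks (98.4%, exact 95% interval 91.6 to 99.96, for counting only) were overlapped by a cKO peak by at least 1 bp. Over the whole WT list the share was 96.0%, which lies within that interval. The intervals here and below treat peaks as independent. Since 8 WT peaks of Kdm4a met a single cKO peak, they are not, and the intervals are no test of these genes against the lists. In the other direction 30 of 92 cKO peaks (32.6%, 23.2 to 43.2) overlapped a WT peak, and over the whole cKO list 25.3% did, also within the interval. Those 30 ranged from 398 to 8532 bp and the 62 without a WT partner from 189 to 2030 bp, so the widths overlapped. The 30 were wider by median, with a median width of 1562.5 bp and a median fold of 7.94, against 360 bp and 4.91 for the 62. The same order held in each of the 4 genes with WT peaks: medians with and without a partner were 1744.5 and 416 bp in Kdm4a, where the latter is 1 peak, 1684 and 642 bp in Kdm4b, 1536 and 308 bp in Kdm2a, and 765 and 314 bp in Kdm2b. A wide peak has more bases on which to meet another, so the overlap and the width are not separate measures. In the WT list 175 peaks (0.475%) were over 2 kb and none was in these genes. In the cKO list 5738 (5.99%) were, and 10 of the 92 peaks of these genes were among them.

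**Figure D4:**
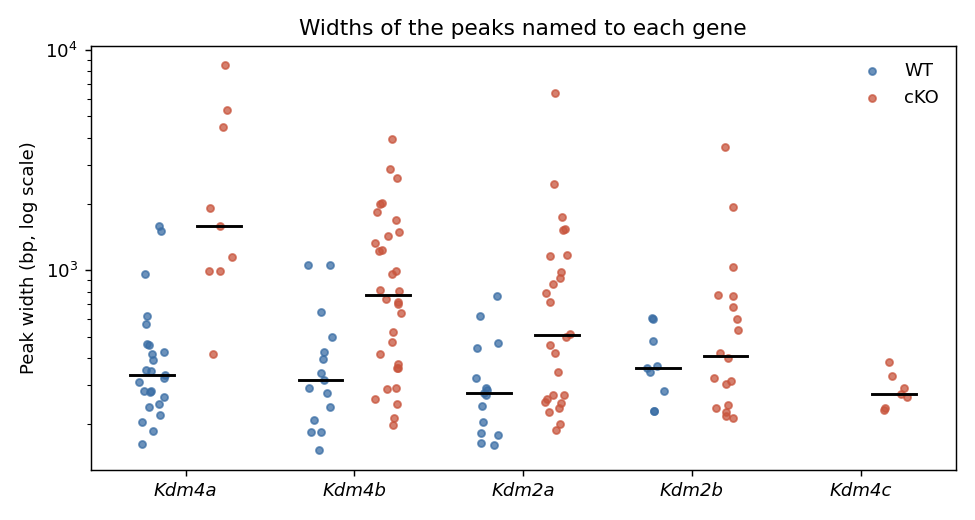
Width of every peak named to each of the 5 genes in bp, on a log axis, in WT and cKO. The median over the 5 genes is 320.5 bp in WT and 621.5 bp in cKO, and the widest is the 8532 bp cKO peak of Kdm4a.

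The peaks lay mostly in introns: 36 of 64 in WT (56.2%, interval 43.3 to 68.6) and 57 of 92 in cKO (62.0%, 51.2 to 71.9), beside 50.9% and 64.0% of all genic peaks. Exonic peaks numbered 12 and 13 (18.8% and 14.1%), beside 23.3% and 16.1% of all genic peaks. Those at annotated transcript ends numbered 14 and 17 (21.9% and 18.5%), beside 17.9% and 14.3%. Those at annotated promoters numbered 2 and 5 (3.1% and 5.4%), beside 8.0% and 5.6%. None of the promoter peaks was at the start of one of the genes. The 2 in WT lay 18.1 kb into Kdm4a and 75.6 kb into Kdm2a, the 3 in Kdm2b lay 100.6 to 106.8 kb from its start, and the 2 in Kdm4b 66.6 and 67.1 kb, all at starts of other annotated transcripts. Local input background above 1.2 times the genome level underlay 13 of the 64 WT peaks, at most 1.92 times. In cKO it underlay 36 of the 92 peaks, at most 2.89 times. The share over each whole list is not given here, so these counts cannot be called high or low for their list. The part of this background in the peak numbers was not tested.

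Other genes of H3K36 methylation gave a setting for these values. Of the 3 further genes listed as H3K36 demethylases, Kdm4d had no peak and Kdm8 was covered 4.27% in cKO and not in WT. Riox1, only 2346 bp long, was covered 25.4% in cKO and not in WT. Whether these 3 act on lysine 36 was not examined here, so the list name is a label only. Of 8 genes for H3K36 methyltransferases, 6 were higher in cKO by at least 10 points, none was lower, and the median coverage was 5.10% in WT against 30.5% in cKO. The largest differences were in Nsd1, a dimethyltransferase, covered 9.06% and 48.4%, and in Setd5, covered 5.63% in WT and 30.4 points more in cKO. Setd2, which encodes the main writer of the trimethyl mark, was covered 5.03% and 32.2%. Over all 8 methyltransferase genes, coverage ran from 0% to 15.6% in WT and from 3.15% to 48.4% in cKO. Kdm2a, with 5.89% and 28.9%, Kdm4b, with 8.08% and 42.7%, and Kdm2b, with 2.21% and 8.31%, lay in that wide range.

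Of 14 genes for readers of the mark, 13 were of at least 5 kb, and 9 of these were higher in cKO, with medians of 5.59% and 27.3%. Glyr1, covered 16.6% and 76.0%, Brpf1, covered 21.1% and 70.7%, and Psip1, covered 17.5% and 61.7%, had the largest differences among those 13. Phf1, at 4782 bp too short to be counted, was covered 4.58% and 52.8%. Of 14 other histone lysine demethylase genes 9 were higher, with medians of 3.80% and 29.6%. They were led by Kdm3a, an H3K9 demethylase gene covered 18.8% and 66.5%, and Kdm5a, an H3K4 demethylase gene covered 6.04% and 44.1%. None in either list was lower by 10 points. The share higher was thus 9 of 13 and 9 of 14 in these lists and 3 of 5 in the H3K36 erasers. It was 6 of 8 in the methyltransferases and 4 of 7 in the Polycomb partners of KDM2B given below. Beside these stand 61.9% of marked genes and 32.6% of all genes of at least 5 kb. With at most 14 genes per list, none of these shares stood far from that of marked genes. These counts were lost when the cKO list was cut to the WT covered length, which left 0 methyltransferases higher, 0 readers higher with 1 lower, 1 other lysine demethylase higher and 0 of the Polycomb partners described next. In 10 genes for partners of KDM2B in its Polycomb complex the medians were lower, 0.807% and 15.4% over the 7 of at least 5 kb, of which 4 were higher: Skp1, covered 0% and 26.3%, Usp7, covered 8.85% and 32.2%, Bcorl1, covered 0% and 15.4%, and Rnf2, covered 3.29% and 16.7%. Ring1, at 3889 bp too short to be counted, was covered 61.2% in cKO, 48.1 points more than in WT. Kdm2b itself, at 2.21% and 8.31%, was not among those higher by 10 points.

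**Figure D5:**
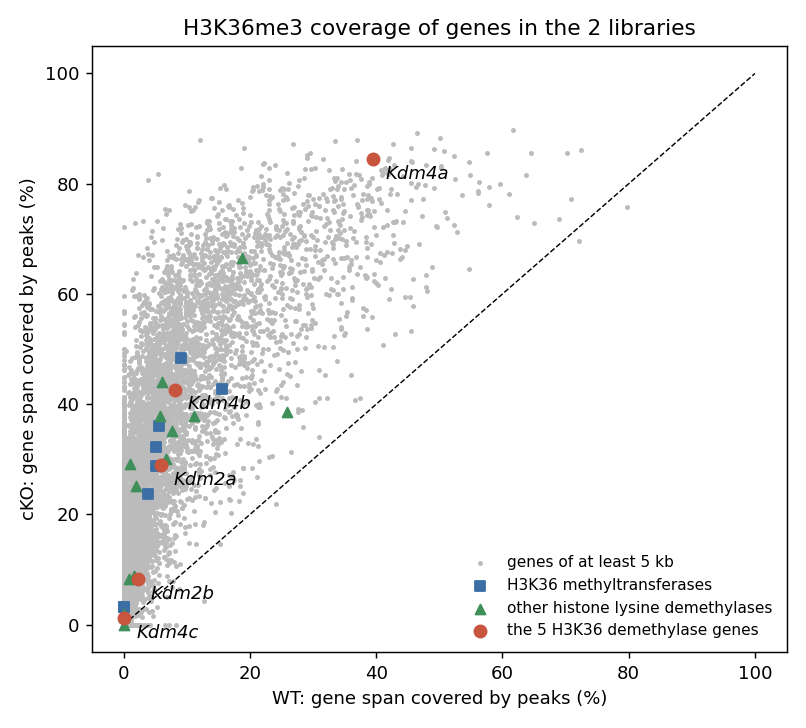
Coverage in cKO against coverage in WT, in percent of the gene, 1 point per gene of at least 5 kb (grey), with the 5 demethylase genes (red circles), the methyltransferase genes (blue squares) and the other lysine demethylase genes (green triangles) marked and equality dashed. Kdm4a lies at the upper right with 39.4% and 84.4%, and Kdm4c at the lower left with 0% and 1.23%.

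The 5 genes spread over nearly the whole range of the 8870 protein-coding genes of at least 5 kb with a peak in either library. Kdm4a exceeded 98.7% of them in WT and 99.7% in cKO, and Kdm4b 77.6% and 76.1%. Kdm2a exceeded 71.3% and 62.4%, Kdm2b 53.1% and 31.9%, and Kdm4c, at 0% in WT, 9.84% in cKO. In the size of the difference the order was the same, from 90.6% of marked genes for Kdm4a to 10.8% for Kdm4c. The place of Kdm4a was slightly higher in cKO than in WT, and those of Kdm4b, Kdm2a and Kdm2b were lower.

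The genes of like length, within 1.5 times, whose pair of values came nearest to each member were looked up among all protein-coding genes. Nearest to Kdm4a were Rbm5, a splicing factor gene covered 41.8% and 84.3%, and Snrnp200, which encodes a spliceosomal helicase and was covered 36.7% and 84.1%, at distances of 2.42 and 2.73 points among 3889 candidates. Nearest to Kdm4b were Ubap2 (7.41% and 42.4%) and Sec31a (7.78% and 43.5%) among 2788. Nearest to Kdm2a were Ndst1 (5.72% and 28.6%) and Plpp3 (5.24% and 28.9%) among 2682, and nearest to Kdm2b were Dcaf5 (2.32% and 8.36%) and Zfp609 (2.04% and 8.22%) among 2033. For Kdm4c they were Plekhg1 and Smarca2, each with no WT peak and 1.23% in cKO, among 1438. The likeness rests on 2 libraries, and only for Kdm4a was no gene within 1 point.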

How the data were processed

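Per the labels' protocols, formaldehyde-fixed and sonicated chromatin was precipitated with an antibody to H3K36me3. The submitters' processing notes name Bowtie2 2.2.9, FastQC, bedtools, MACS2 2.1.0 and the build mm10. Per the file headers, MACS 2.1.1.20160309 called narrow peaks of each ChIP library against an input at a p cutoff of 1e-05. The authors' peak lists hold the pileup signal at the summit in tags, each peak's fold over local input, and -log10 p-values and q-values. A second deposited table gives each peak a class and a gene name; its tool is not named in the sources.

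Peaks were joined to the annotation by chromosome, start and end. Gene spans came from RefSeq, assembly GRCm38.p6, over 21883 protein-coding genes. Strand came from the RefSeq promoter table or, for Kdm2a and Kdm4b, from the order of intron numbers in the annotation. Coverage was computed from merged peaks with Python 3.11.15, pandas 2.3.3 and numpy 2.4.6. Genes of at least 5 kb that differed by at least 10 points were counted as higher or lower. Exact Clopper-Pearson intervals used scipy 1.17.1. Depth was 31984670 and 32927164 ChIP tags, and the count of tags limits how weak a peak can be called. Coverage can depend on depth, enrichment and fragment length, which the file headers give as 152 bp (WT) and 185 bp (cKO).

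The genes and lists were chosen with earlier results of these data known. Named genes are the 5 members, the 2 to 4 genes of each list with the largest difference, Setd2, and all of the 3 further genes listed as H3K36 demethylases. For each member the 2 genes of like length nearest in both values are named too. Setd2 was added after its values were seen. The entry Skp1a of the Polycomb list had no match of its own, being a synonym of Skp1. Alternatives changed the significance or fold minimum, the size of the cKO list, the joining of peaks, the overlap and the 10-point margin.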

Additional observations from a re-analysis of the deposited data

How the results depend on the processing

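No paired analysis was possible because each genotype had 1 ChIP library, and for the same reason no replicate could be left out. The settings were minimums of 5 for -log10 q and of 4 for the fold, the cKO list cut to its most significant peaks until it matched WT in number or in covered length, peaks within 3 kb joined, a reciprocal overlap of 50%, a margin of 20 points, and any overlap with the span in place of the gene name. The number of all genes lower in cKO, 0 with the lists as deposited, was 1 at the q minimum, 1 at the fold minimum, 5 with the WT number of peaks and 6 with peaks joined. With the WT number of peaks the 5 genes had 41 cKO peaks, and 3 of the 5 were still higher. With the WT covered length they had 11 cKO peaks, 50.0% of WT peaks were overlapped, 1 of the 5 genes (Kdm4a) was higher, and Kdm4b turned to -3.03 points. There, 808 of all genes were higher and 373 lower, and the lists gave 0 methyltransferases higher, 0 readers higher and 1 lower, 1 other lysine demethylase higher and 0 Polycomb partners higher. Joining left 12 WT and 20 cKO peaks in the 5 genes, of which 2 were still higher, with Kdm4a down to 5.67 points. It brought 1 of the further genes listed as H3K36 demethylases past the margin. A reciprocal overlap left 6.25% of WT peaks shared. At 20 points 2 Polycomb partners were higher. Span overlap was also combined with the WT covered length and with joining, both chosen after seeing the data. The WT covered length then gave 11 cKO peaks, 58.9% shared, 1 gene higher and -3.03 points for Kdm4b. Joining then gave 11 WT and 18 cKO peaks with 90.9% shared and 2 genes higher. The cause of these changes was not tested beyond the construction of each setting. No setting varied the sequencing depth, so its part in weak peaks such as the 7 of Kdm4c was not tested.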
